A study of Mus musculus with 7 samples.

Results

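The immunoglobulin genes read out in B cells of mouse CT-2A gliomas were examined in 7 single-cell libraries. The members were selected on the deposited values themselves. A gene row was taken when its symbol named a heavy or light chain variable (V) segment (Ighv, Igkv or Iglv) or a constant (C) region, and when its unique molecular identifiers (UMIs, 1 for each captured mRNA) summed to 20 or more over cells that the authors annotated as B cells. Of 55491 gene rows, 361 matched by symbol, 227 of these had a UMI in B cells, and 166 met the rule. The members were 73 of 185 Ighv rows, 80 of 160 Igkv rows, 3 of 3 Iglv rows, 6 of 8 heavy chain constant rows and 4 of 5 light chain constant rows. Just inside the limit were Igkv18-36 with 22 UMIs and Igkv4-60 with 22.5 UMIs, and just outside were Igkv1-99 and Ighv5-9 with 19 UMIs each. The constant regions Ighg1 with 6 UMIs and Ighe with 4 UMIs also fell outside. Because these sums chose the members, the levels in B cells against other cells are given as a description with no test.

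Each library came from 1 mouse. Sorted cells positive for CD45, CD11b or both were loaded after the dissociated tumour-bearing hemispheres had been frozen and thawed. CD45 is a general marker of immune cells, and CD11b is a marker of myeloid cells. The 4 Siglece KO mice (called KO) carried the tamoxifen-inducible driver Sall1-CreERT2, whose promoter is used to reach microglia and not B cells, together with the floxed Siglece allele. The 3 WT mice carried the floxed allele without the driver. The backgrounds given are B6;129 for the driver and B6.129P2 for the floxed Siglece. CT-2A tumour cells were injected into the brain at an age of 8 to 12 weeks. All mice of both genotypes received 2.5 mg tamoxifen per injection into the abdominal cavity, daily from day 7 to day 21 after the tumour injection and every other day after that.

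A B cell builds its antibody from a heavy chain and a light chain. Each chain gene is assembled by joining 1 of many V segments to short D or J segments, and the assembled V region is spliced to a constant region. Cells that have not switched class use Ighm and Ighd. Class switching replaces them with a gamma (Ighg), alpha (Igha) or epsilon (Ighe) constant region on the same V region. Light chains are kappa (Igkc) or lambda (Iglc). When B cells turn into antibody-secreting plasmablasts and plasma cells they transcribe these genes very strongly. The libraries were made with a 5′ kit, which reads the transcript from its start, so that most immunoglobulin reads fall on the V segment and not on the constant region.

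The V segments below were chosen because the results turn on them. Ighv1-42 with Igkv4-50, and Ighv1-59 with Igkv6-20, were the heavy and light V genes of the most frequent cell groups in WT replicate 2 and in KO replicate 4. Igkv1-117 and Igkv1-110 show how alike members can be. Positions are GRCm38 (the build called mm10), and the spliced coding bases are from GENCODE M21, 5′ to 3′, with up to 300 bases of each. Capitals mark the longest run of bases that also occurs in another immunoglobulin V row. Coding bases lie at chr12:114937113-114937544 for Ighv1-42, chr6:69700767-69701287 for Igkv4-50, chr12:115335082-115335514 for Ighv1-59 and chr6:70335841-70336479 for Igkv6-20, all on the minus strand. Those of Igkv1-117 lie at chr6:68121091-68121827 and those of Igkv1-110 at chr6:68270527-68271267, both on the plus strand. Each of these genes has 2 exons.
Ighv1-42: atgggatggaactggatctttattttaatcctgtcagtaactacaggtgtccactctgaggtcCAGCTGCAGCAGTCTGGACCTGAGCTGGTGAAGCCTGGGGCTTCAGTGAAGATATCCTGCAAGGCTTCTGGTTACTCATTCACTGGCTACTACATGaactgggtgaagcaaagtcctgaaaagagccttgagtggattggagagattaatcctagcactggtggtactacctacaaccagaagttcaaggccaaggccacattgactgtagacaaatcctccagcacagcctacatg
Igkv4-50: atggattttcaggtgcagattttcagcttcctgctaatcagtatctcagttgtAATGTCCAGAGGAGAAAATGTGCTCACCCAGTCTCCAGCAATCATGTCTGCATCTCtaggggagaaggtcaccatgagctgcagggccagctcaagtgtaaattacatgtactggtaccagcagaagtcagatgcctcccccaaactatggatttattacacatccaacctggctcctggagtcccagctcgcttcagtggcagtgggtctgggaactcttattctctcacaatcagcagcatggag
Ighv1-59: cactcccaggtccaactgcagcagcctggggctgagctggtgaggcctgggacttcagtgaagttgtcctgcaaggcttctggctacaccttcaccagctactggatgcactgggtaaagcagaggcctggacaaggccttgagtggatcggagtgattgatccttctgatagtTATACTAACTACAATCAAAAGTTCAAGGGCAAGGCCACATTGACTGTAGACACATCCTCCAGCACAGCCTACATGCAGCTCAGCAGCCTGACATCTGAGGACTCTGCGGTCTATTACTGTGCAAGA
Igkv6-20: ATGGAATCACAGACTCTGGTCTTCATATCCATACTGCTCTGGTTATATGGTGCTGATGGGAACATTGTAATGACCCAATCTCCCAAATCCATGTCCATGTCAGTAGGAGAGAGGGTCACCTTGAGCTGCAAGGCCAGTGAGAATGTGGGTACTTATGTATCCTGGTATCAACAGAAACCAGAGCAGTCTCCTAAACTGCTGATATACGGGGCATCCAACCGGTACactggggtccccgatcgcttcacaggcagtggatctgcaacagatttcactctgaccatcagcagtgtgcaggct
Igkv1-117: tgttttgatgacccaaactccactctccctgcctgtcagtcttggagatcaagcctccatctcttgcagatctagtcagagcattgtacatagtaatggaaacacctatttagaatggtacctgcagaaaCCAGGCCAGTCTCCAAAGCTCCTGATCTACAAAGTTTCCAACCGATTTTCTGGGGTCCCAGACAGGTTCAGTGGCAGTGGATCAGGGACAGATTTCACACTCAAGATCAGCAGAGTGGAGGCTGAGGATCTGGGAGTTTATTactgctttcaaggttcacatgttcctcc
Igkv1-110: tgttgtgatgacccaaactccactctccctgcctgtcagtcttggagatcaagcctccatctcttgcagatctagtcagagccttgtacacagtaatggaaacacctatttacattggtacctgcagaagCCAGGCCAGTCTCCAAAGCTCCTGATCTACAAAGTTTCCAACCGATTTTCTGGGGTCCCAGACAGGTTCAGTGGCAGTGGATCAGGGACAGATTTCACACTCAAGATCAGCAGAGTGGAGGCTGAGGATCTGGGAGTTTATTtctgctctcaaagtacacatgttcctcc
The capitals cover 96 bases shared by Ighv1-42 with Ighv1-31, 56 shared by Igkv4-50 with Igkv4-57-1, 126 shared by Ighv1-59 with Ighv1-50 and 225 shared by Igkv6-20 with Igkv6-29. Igkv1-117 and Igkv1-110 share a run of 142 bases. A read that falls inside such a run cannot be assigned to 1 of the genes from its letters.

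The libraries held 1410 to 5856 cells and 16037214 to 38966377 UMIs each. Siglece, the deleted gene, had 0 to 2 UMIs in the microglia of the KO libraries (0 to 19.6 CPM, which stands for UMIs per 1000000 UMIs of the same cells) and 7 to 20 UMIs in those of the WT libraries (18.6 to 45.9 CPM), and the ranges overlapped slightly. Microglia here pool 2 annotations, with 163 cells in the main one and 251 in the one named low-quality or activated. All 13 of KO replicate 3 were of the latter. The KO libraries held 13 to 49 microglia with 36904 to 186615 UMIs, and the WT libraries 92 to 113 with 377244 to 553957 UMIs. The UMI counts of Siglece therefore also differ through depth. B cells had 0 to 3 Siglece UMIs per library. A total of 460 cell barcodes occurred in more than 1 library. Of these, 11 belonged to an immunoglobulin-rich cell (defined below) in 1 library and 0 in more than 1. No doublet caller was run, and how the authors treated doublets is not given in the sources used here. Nothing in the labels pairs the mice, and the spread between mice is the error used throughout.

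Cells annotated as B cells numbered 840 of 28644, and they were spread very unevenly. KO replicates 1 to 4 held 8, 40, 41 and 273 of them, and WT replicates 1 to 3 held 96, 357 and 25. As a share of the cells of each library they were 0.567%, 0.754%, 0.864% and 4.66% in KO and 3.27%, 8.02% and 0.634% in WT. By this share WT replicate 1 lay nearer to KO replicate 4 than to the mice with few B cells. By UMIs, KO replicate 4 and WT replicate 2 stood apart from the other mice of their genotype. They had 7.75% and 15.4% of their UMIs in B cells against 0.401% to 1.55% in the other 5 mice. Their B cells were also the deepest, with a median of 10536 and 14095 UMIs per cell against 2325.5 to 6242.5. KO replicate 1, with 8 B cells, was left out of the genotype comparisons within B cells, which therefore set 3 KO mice against 3 WT mice.

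The 166 members carried 2562328 of the 9494943 UMIs of B cells, which is 27.0%. Kappa V segments supplied 56.4% of the member UMIs, heavy V segments 28.4%, heavy constant regions 7.23%, light constant regions 6.79% and lambda V segments 1.12%. In KO replicates 1 to 4 the members made up 42.3%, 11.2%, 8.04% and 29.0% of the B cell UMIs of the mouse, and in WT replicates 1 to 3 they made up 3.90%, 29.4% and 18.1%. KO replicate 1 was highest, WT replicate 1 was lowest, and the genotypes overlapped. Over the 3 mice of each genotype with 20 or more B cells the share was 16.1% ± 11.3 in KO and 17.1% ± 12.8 in WT (SD, n = 3 each), a difference smaller than the spread between mice (exact permutation test, two-sided, p = 0.9, where the smallest p that 3 against 3 mice can give is 0.1).

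The immunoglobulin content of single cells ranged widely. Of the 840 cells, 160 had under 1% of their UMIs in immunoglobulin rows, 281 had 1% to 5%, 105 had 5% to 20%, 181 had 20% to 50% and 113 had 50% or more. Cells with 20% or more are called immunoglobulin-rich here, which is a range and not a cell type. They numbered 294 (35% of B cells), and 75 cells lay near the limit, between 15% and 25%. The rich cells carried 87.5% of all member UMIs of B cells. KO replicates 1 to 4 held 3, 3, 4 and 109 rich cells, and WT replicates 1 to 3 held 1, 171 and 3. As a share of B cells these were 39.9% in KO replicate 4 (exact binomial 95% interval 34.1% to 46.0%) and 47.9% in WT replicate 2 (42.6% to 53.2%). KO replicate 1 was close to KO replicate 4 at 37.5%, but with 8 B cells (8.52% to 75.5%). KO replicates 2 and 3 and WT replicate 3 stood at 7.5%, 9.76% and 12%, and WT replicate 1 at 1.04% (0.0264% to 5.67%). These intervals cover counting error only. The rich cells had a median of 16808.5 UMIs against 3156 in the other 546 cells. The step in depth lay near 5%, with medians of 2937.5, 2758, 21294, 16244 and 17655 UMIs in the 5 ranges, and so did the step in class, since 99 of the 105 cells at 5% to 20% were switched (the call is defined below).

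**Figure D1:**
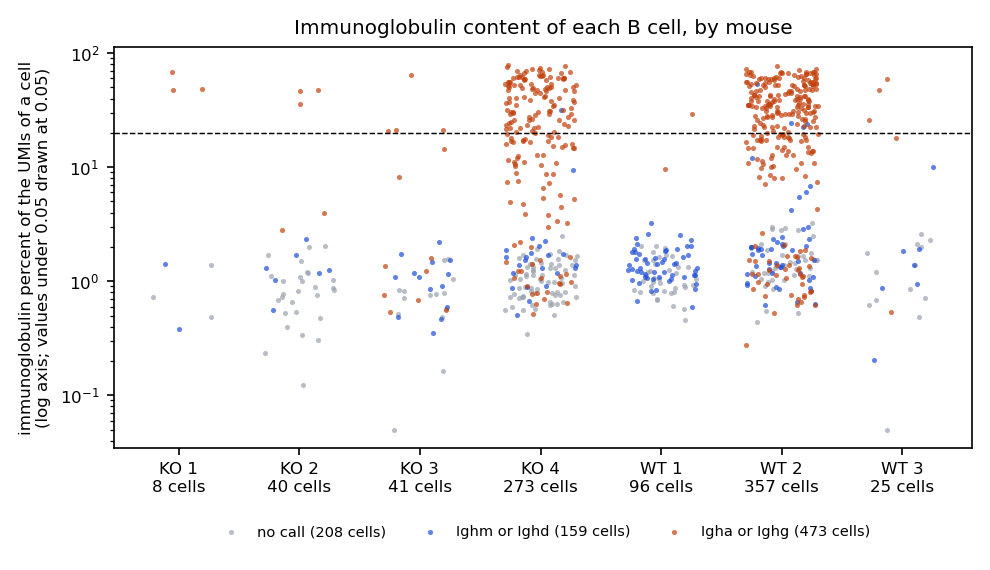
Immunoglobulin content of each cell annotated as a B cell (y axis, percent of the UMIs of the cell, log axis), by mouse (x axis, KO and WT replicates with their number of B cells), coloured by the heavy chain class of the cell; the dashed line is the 20% limit. KO 4 and WT 2 hold 109 and 171 of the 294 cells above the line, and most of the cells above it are coloured as switched.

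The name B cells held against the markers for cells of low content, and the rich cells carried the markers of antibody secretion. Of 8 B cell markers, 6 had their highest level of all annotations in B cells, here as CPM of all UMIs. The other 2 were Cd22 and Blk. The levels that follow are CPM of the UMIs that were not immunoglobulin, so that the immunoglobulin load itself does not lower them. Ms4a1, which encodes CD20, stood at 190 CPM in cells under 20% and at 38.3 in rich cells. Pax5, the transcription factor that keeps B cell identity, stood at 36.0 and 0.358, and Ebf1, another such factor, at 217 and 20.1. Both stepped down near 5%, since Pax5 stood at 77.3, 60.7 and 0.51 and Ebf1 at 323, 456 and 14.8 in the 3 ranges under 20%. The receptor component Cd79a stood at 976 and 790 and had a UMI in 95.4% and 97.6% of the cells. Its partner Cd79b was not lower in rich cells, with 451 and 474. The shares of cells with a UMI were taken without thinning, and rich cells were deeper (median 16808.5 against 3156 UMIs). KO replicate 4 and WT replicate 2 held 109 and 171 of the 294 rich cells, so the levels in rich cells are mostly those of these mice.

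All 7 plasma cell markers were higher in the rich cells. Jchain, which links IgA and IgM into multimers, stood at 4153 CPM in cells under 20% and 34477 in rich cells, where 100% of the cells had a UMI without thinning. Xbp1, the transcription factor of the secretory programme, stood at 697 and 2906, the chaperone Mzb1 at 2778 and 8937, and Sdc1, which encodes the plasma cell surface protein syndecan 1, at 36.5 and 232. Much of the level in cells under 20% came from the 105 cells at 5% to 20%. Jchain stood at 72.0 CPM in cells under 1% and at 544, 8389, 23117 and 63674 in the next 4 ranges. In the 3 ranges under 20%, Xbp1 stood at 53.0, 104 and 1381, Mzb1 at 474, 838 and 5109, and Sdc1 at 2.12, 3.24 and 73.9. Of the 16 genes of a list on antibody secretion, 16 were higher in the rich cells. No test was made of these levels.

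Markers of other cell types were also read. The summed T cell markers stood at 47.7 CPM in rich cells and 106 in the others, and the NK cell markers at 41.6 and 59.1. The monocyte and macrophage list reached 12834 CPM in rich cells against 874, and almost all of it was Ly6c2, at 12593 against 574. Its other genes stayed low, with Lyz2 at 85.7 and 115, Csf1r at 9.68 and 11.1, and Adgre1 at 1.43 and 2.17. Ly6c2 encodes a surface protein of monocytes that plasma cells also carry. The summed list of plasmacytoid dendritic cells stood at 1096 CPM in rich cells and 701 in the others, with 5 of 6 genes higher in rich cells. Bst2, an interferon-induced surface protein, made up most of it in rich cells at 790 against 289, while Siglech, which marks these dendritic cells, stood at 9.32 and 2.66. The tumour or stromal list stood at 219 and 441, of which Vim gave 216 and 432, while Col1a1 and Col1a2 had 0 UMIs. Mki67, a marker of dividing cells, was at 198, 180, 743, 639 and 123 CPM in the 5 ranges from under 1% to 50% or more, so that it was highest from 5% to 50%.

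**Figure D2:**
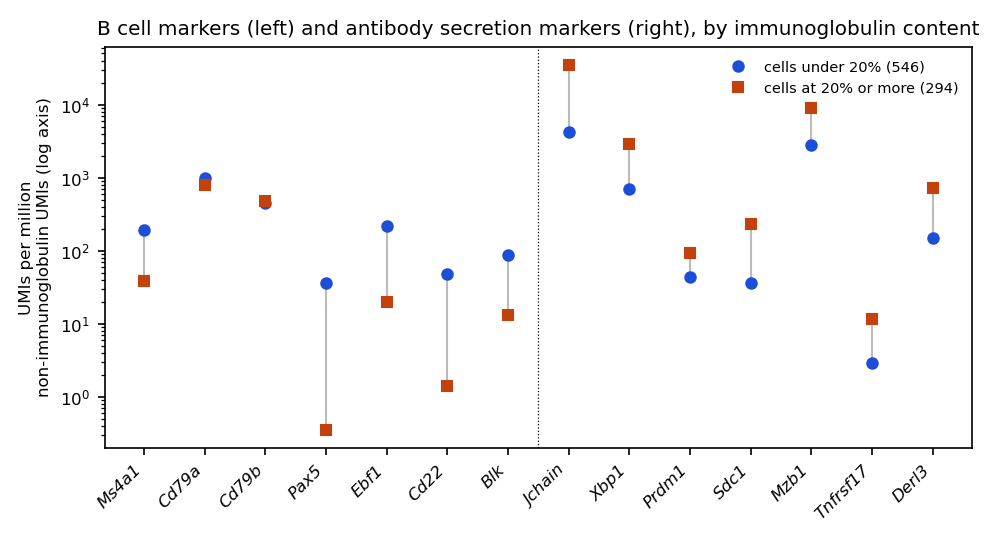
Levels of 7 of the 8 B cell markers (left of the dotted line) and 7 plasma cell markers (right) in B cells under 20% immunoglobulin (circles, 546 cells) and at 20% or more (squares, 294 cells), in CPM of the non-immunoglobulin UMIs on a log axis, summed over mice. Pax5 stands at 36.0 and 0.358, and Jchain at 4153 and 34477, in the lower and the higher range.

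Among the heavy chain constant regions, Ighg2c, which encodes IgG2c, was the most abundant, with 112185 UMIs in 489 B cells. Its level in KO replicates 1 to 4 was 10934, 2173, 3414 and 11091 CPM of all B cell UMIs, and in WT replicates 1 to 3 it was 412, 13891 and 16173. WT replicate 1 was the lowest of the 7 and the other WT mice were the highest. This order rests on few cells in 4 of the mice. Ighg2c had a UMI in 2 and 5 B cells of KO replicates 1 and 2, and in 1 and 4 of WT replicates 1 and 3. In each of these mice 1 cell had Ighg2c as its leading constant region. Ighg2b stood at 0, 43.7, 513 and 9269 CPM in KO and at 3.15, 3869 and 1437 in WT, so that the range spanned several orders of magnitude within each genotype. KO replicate 1 had 0 Ighg2b UMIs in its 8 B cells.

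Igha, the constant region of IgA, behaved in another way. It stood at 28081, 2722, 1018 and 963 CPM in KO and 1332, 2317 and 5343 in WT. The highest mouse was KO replicate 1, where 2 of the 3 switched cells carried it. Ighg3 had 430 UMIs in all, 407 of them in WT replicate 2.

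Ighm and Ighd, used before switching, were scarce. Ighm stood at 75.6, 487, 234 and 288 CPM in KO and at 759, 420 and 1194 in WT. Of its 3678 UMIs in B cells, 21.2% came from 1 cell. Among the mice with 20 or more B cells, KO replicate 2 at 487 lay above WT replicate 2 at 420, so the groups overlapped by 1 mouse. Ighd stood at 21.6, 62.4, 41.1 and 11.6 in KO and at 258, 11.5 and 80.7 in WT. Within Ighm plus Ighd, Ighd took 22.2%, 11.4%, 14.9% and 3.87% in KO and 25.4%, 2.67% and 6.33% in WT. These shares rest on few Ighd UMIs, 2, 10, 20 and 35 in KO and 82, 61 and 10 in WT. In KO replicate 1 there were 7 Ighm UMIs beside the 2 of Ighd. The 2 lowest shares were those of KO replicate 4 and WT replicate 2. Over 3 mice each, the share was 10.1% ± 5.64 in KO and 11.5% ± 12.2 in WT (SD, n = 3 each; exact permutation p = 0.9).

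**Figure D3:**
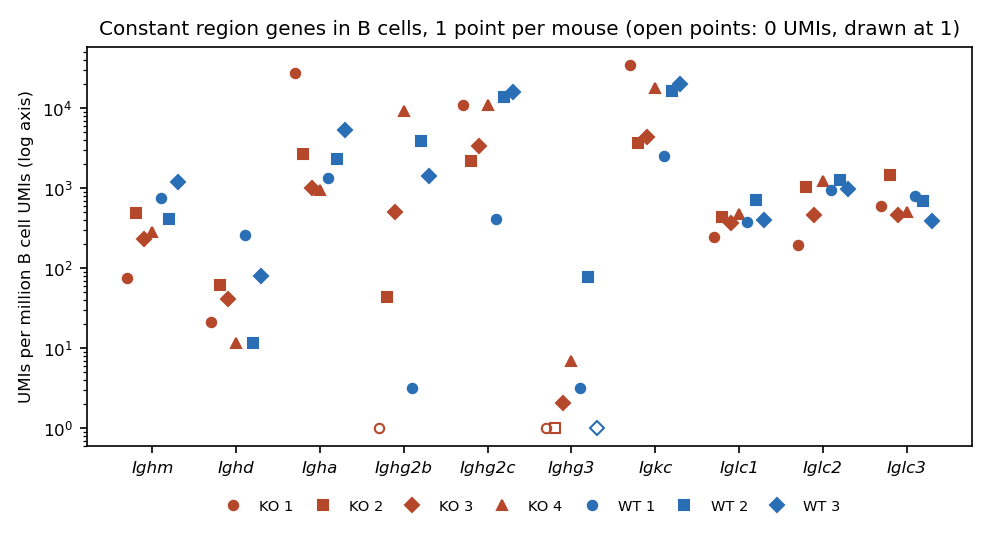
Level of each constant region gene in B cells (y axis, CPM of all B cell UMIs, log axis), 1 point per mouse, KO in red and WT in blue; open points mark 0 UMIs. The genotypes overlap for each of the 10 genes, and Ighg2b runs from 0 to 9269 within the KO mice. The Ighg2c points of KO 1, KO 2, WT 1 and WT 3 rest on 2, 5, 1 and 4 cells.

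A cell was called switched when its Ighg, Igha and Ighe UMIs summed to 3 or more and exceeded Ighm plus Ighd. Of the 840 cells, 473 were switched, 159 were unswitched and 208 had too few UMIs for a call. By their leading constant region, 263 cells carried Ighg2c, 144 Ighg2b, 63 Igha and 3 Ighg3. Of the 294 rich cells 289 were switched and 5 unswitched, while the other 546 cells split into 184 switched, 154 unswitched and 208 without a call. The classes ranged widely between mice of 1 genotype. Among called cells, 3 of 5, 5 of 12, 13 of 27 and 181 of 204 were switched in KO replicates 1 to 4, and 2 of 57, 264 of 315 and 5 of 12 in WT replicates 1 to 3. WT replicate 1 stood out, with 3.51% switched (exact binomial 95% interval 0.428% to 12.1%), and 1 of its 96 B cells was rich. Over 3 mice each, 59.5% ± 25.5 of called cells were switched in KO and 43.0% ± 40.2 in WT (SD, n = 3 each; exact permutation p = 0.5). Depth moved with the call: cells in the range under 1% had a median of 2937.5 UMIs and 95 of 160 had no call. Of the cells under 1% and at 1% to 5%, 32 and 53 were switched, and such a call needs only 3 UMIs. Members also had UMIs in cells not annotated as B cells, most in KO replicate 4 and WT replicate 2 (2120 and 3092 CPM, given below). The part of depth and of such stray UMIs in the switched share was not tested.

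Igkc was the most abundant constant region, with 151080 UMIs in 767 B cells. It stood at 34693, 3733, 4358 and 17975 CPM in KO and at 2550, 16545 and 19926 in WT. The lambda constant regions were more even between mice. Iglc2 stood at 194, 1036, 462 and 1231 CPM in KO and at 944, 1254 and 985 in WT. The lambda share of light chain constant UMIs ran from 2.90% in KO replicate 1 to 45.4% in WT replicate 1, with 44.1%, 22.9% and 10.9% in the other KO mice and 13.9% and 8.22% in the other WT mice. Over 3 mice each it was 26.0% ± 16.8 in KO and 22.5% ± 20.02 in WT (SD, n = 3 each; exact permutation p = 0.8).

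Lambda constant UMIs were also found in cells with a kappa V gene. Of 615 cells whose light chain V gene could be called (3 or more UMIs and 80% or more of the light V UMIs in 1 row), 604 used a kappa V gene and 11 a lambda V gene. The 11 lambda V cells had 374 Iglc UMIs and 4 Igkc UMIs, so that 98.9% were lambda. The 604 kappa V cells held 20191 Iglc UMIs, with a median of 21 per cell beside a median of 167 Igkc UMIs. Of these cells 52 had 80% or more of their light chain constant UMIs on Iglc and 244 were mixed. In all B cells 352 were mixed, with a median of 6 Igkc and 9 Iglc UMIs. The Iglc share of UMIs was thus not a share of cells with a lambda V gene. Iglv1 had 23285 UMIs, of which 19828 lay in WT replicate 2, and 83.8% of the 3942 UMIs of Iglv2 came from 1 cell.

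Many of the 156 V members drew much of their UMIs from 1 cell. For the median V member, 46.0% of its UMIs came from 1 cell and 89.0% from 1 mouse. For 69 of them 1 cell gave 50% or more of the UMIs, and for 31 of them 90% or more. Others were spread over many cells, such as Iglv1 with UMIs in 409 B cells and 16.2% from its highest cell, and Igkv3-7 with UMIs in 281 and 7.85%. WT replicate 2 was the main source of 89 V members and KO replicate 4 of 52. These mice held 1555020 and 876225 of the 2562328 member UMIs of B cells, and the members were chosen on those sums. The counts of V members by mouse therefore largely follow the totals of the mice. Only 7 V members had a UMI in B cells of all 7 mice. The 10 V members with the most UMIs supplied 36.8% of the V UMIs.

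Igkv3-7 (chr6:70607437-70608036, plus strand) had 167480 UMIs, the highest sum of the members, above Igkc with 151080. This order is uncertain, since 35.5% of the Igkv3-7 UMIs and 0% of the Igkc UMIs lay in values that were not whole. Its UMIs in KO replicates 1 to 4 were 0, 3500, 2016 and 137566, and in WT replicates 1 to 3 they were 20, 23413 and 965. Igkv1-117 was the reverse, with 17.7, 56.4, 97 and 130 UMIs in KO and 137, 95751 and 1627 in WT. Most of each gene thus came from 1 of the mice rich in B cells, 82.1% from KO replicate 4 for Igkv3-7 and 97.9% from WT replicate 2 for Igkv1-117. The other 8 of the leading 10 also had most of their UMIs in KO replicate 4 or WT replicate 2, to a varying degree. The leading 10 were chosen by sums that came mostly from those mice. Igkv6-20 lay mostly in KO replicate 4 (97.4% of 68533 UMIs). Igkv14-100, Ighv1-81, Igkv6-17, Igkv6-15, Igkv19-93, Igkv4-50 and Igkv4-55 had their most UMIs in WT replicate 2, with 57.4% for Igkv19-93 (26594 of its other UMIs lay in KO replicate 4) as the lowest share, 76.8% for Igkv6-17 and 78.7% for Igkv6-15, and 99.9% for Igkv4-55 as the highest.

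Heavy and light V genes were read together in 498 cells, and the same pair recurred in many cells of KO replicate 4 and WT replicate 2. A heavy V gene could be called in 585 cells (71 genes) and a light V gene in 615 (70 genes). Ighv1-42 with Igkv4-50, printed above, was found in 27 cells of WT replicate 2. Ighv1-59 with Igkv6-20 was found in 25 cells of KO replicate 4. Next came Ighv3-6 with Igkv14-100 and Ighv8-8 with Igkv1-117 in 22 cells each of WT replicate 2, Ighv1-81 with Igkv6-17 in 15 cells of WT replicate 2 and in 3 of KO replicate 4, and Ighv10-1 with Igkv3-7 in 12 cells of KO replicate 4.

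Pairs found in more than 1 cell of the same mouse took 121 of 155 cells in KO replicate 4 (27 of 61 pairs) and 187 of 240 cells in WT replicate 2 (30 of 83 pairs). In WT replicate 1, 0 of 52 cells shared a pair. KO replicate 3 had 1 such pair, in 2 of 22 cells, and KO replicates 1 and 2 and WT replicate 3 had 0 among 5, 12 and 12 cells. The chance of seeing a pair again grows with the number of cells, and the shares were not compared by a test. Between mice, 17 pairs occurred in more than 1 mouse. Without the D and J segments and the junction, which a count per gene does not give, a shared V pair does not show that cells descend from 1 B cell.

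**Figure D4:**
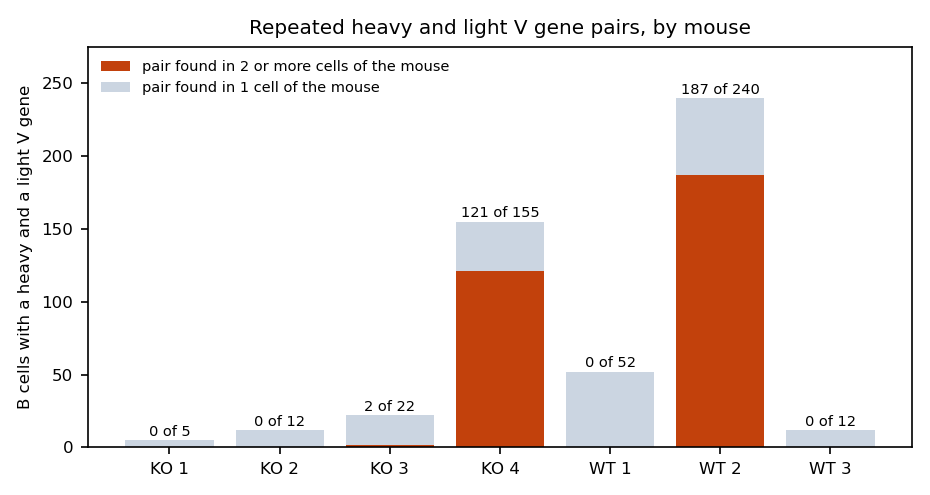
Number of B cells with both a heavy and a light V gene called, by mouse (bars start at 0), split into cells whose pair was found in 2 or more cells of the mouse (dark) and in 1 cell (light). Repeated pairs take 121 of 155 cells in KO 4 and 187 of 240 in WT 2, and 0 of 52 in WT 1.

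Cells with the same V pair carried different constant regions. The 25 cells with Ighv1-59 and Igkv6-20 had Ighg2b in 20 and Ighg2c in 5. The 27 cells with Ighv1-42 and Igkv4-50 had Ighg2c in 21, Igha in 3, Ighg2b in 2 and Ighm or Ighd in 1. Ighv8-8 with Igkv1-117 split into 11 Ighg2c, 7 Ighg2b and 4 Igha cells. In KO replicate 4 the cells in repeated pairs were switched in 121 of 121 and rich in 86, against 28 and 17 of the 34 cells whose pair was found once. In WT replicate 2 they were switched in 181 and rich in 139 of 187, against 39 and 26 of 53.

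KO and WT B cells were then compared gene by gene. With edgeR's quasi-likelihood test on UMIs summed per mouse, 76 of the 166 members passed the filter on low counts, and 0 of the 76 passed the adjusted threshold of 0.05, where 0 of 4648 genes did (0%). At an unadjusted p under 0.05 there were 7 of 76 members, all lower in KO, beside 44 of 4648 genes (0.947%), of which 27 (0.581%) were lower in KO. These counts moved with single mice. The members lower in KO were 6 of 10 without KO replicate 2, 4 of 9 without KO replicate 3, and 7 to 9 of 8 to 11 in each of the other 4 fits that left out a mouse, and the genes rose to 509 of 4639 without WT replicate 2 and dropped to 20 of 4377 without KO replicate 3. DESeq2 called 2 members, Ighv1-28 and Ighv1-55, which were also the only genes it called (0.0106% of 18787). All 59 UMIs of Ighv1-28 came from 1 cell of KO replicate 2, so that its call rests on that cell. Without the filter on low counts edgeR called 14 genes (0.0741% of 18892), of which 9 were members. The median log2 fold change of KO against WT was −0.56 over the 76 members and −0.01 over all genes. The SE, computed back from the fold change and the F statistic of the test, had a median of 2.82 on the log2 scale over the members. Over all genes it was 0.40. By this measure the members were measured much less precisely than other genes across these mice.

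For the constant regions the log2 fold change was −1.24 ± 0.44 for Ighm (SE, unadjusted p = 0.0201, edgeR adjusted p = 1.00), −1.82 ± 1.15 for Ighd and −0.99 ± 0.62 for Igha. The gamma regions gave −0.86 ± 1.53 for Ighg2c and 0.92 ± 2.72 for Ighg2b. The light chains gave −0.55 ± 1.19 for Igkc, −0.30 ± 0.40 for Iglc1, −0.22 ± 0.44 for Iglc2 and 0.32 ± 0.50 for Iglc3. None of these passed the adjusted threshold in this edgeR fit. With the replicate number as a block, which the labels do not give as a pairing, edgeR called Ighg2c at −2.68 and Igkc at −2.39. That contrast rested on replicates 2 and 3 alone. Ighm was −0.82 without WT replicate 3 (edgeR, unadjusted p = 0.11) and −0.56 with cells thinned to 1500 UMIs (edgeR, unadjusted p = 0.146). The other signs, apart from that of Ighg2c, were not stable. Leaving out 1 mouse turned Ighd to 0.15 (WT replicate 1), Ighg2b to −3.01 (KO replicate 4), Iglc1 to 0.21 (WT replicate 2), Iglc2 to 0.17 (KO replicate 3) and Iglc3 to −0.37 (KO replicate 2), and with all 7 mice Igha was 1.91 and Igkc 0.53. Among V genes, Igkv1-117 gave −5.94 ± 1.86 and Igkv3-7 gave 2.58 ± 1.92 (SE); leaving out 1 mouse moved the first between −6.68 and −5.18 and the second between 1.52 and 3.31 (the lower value without KO replicate 4). Without rich cells the first was −3.47. A member that missed the threshold is not thereby shown to be equal in KO and WT.

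Genes that act on immunoglobulin genes were not called either. By edgeR, adjusted over all genes, 0 of 18 tested genes of B cell identity and receptor signalling, 0 of 15 of antibody secretion, 0 of 4 of the germinal centre and class switching, 0 of 11 of immunoglobulin transcription, 0 of 1 of recombination and 0 of 2 receptors for immunoglobulin passed. At an unadjusted p under 0.05 each list also had 0.

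Some V members had UMI values that were not whole numbers, and most members with many such values had near copies. Of the V UMIs in B cells 19.6% were not whole, against 1.96% of the constant region UMIs. Among 55 V members that share a run of 100 or more bases with another row, 23 had 50% or more of their UMIs in values that were not whole, with a median of 29.8%. Among the 101 with shorter runs 2 had, with a median of 0%. Igkv1-110, whose 142 shared bases with Igkv1-117 are in capitals above, had 99.2% of its UMIs in such values, against 13.05% for Igkv1-117. Igkv4-50 and Igkv14-100 had 0%. The level of Igkv1-110 and of other near copies is therefore uncertain, and how the authors' counting made these values is not given in the sources used here.

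Outside B cells the members had 189086 UMIs, which is 6.87% of all their UMIs. In cells not annotated as B cells the members stood at 487, 172, 113 and 2120 CPM in KO replicates 1 to 4 and at 148, 3092 and 83.7 in WT replicates 1 to 3. KO replicate 4 and WT replicate 2, whose B cells carried the most UMIs, were again the highest. The genotypes did not differ beyond the spread, with 723 ± 946 in KO (SD, n = 4) and 1108 ± 1719 in WT (SD, n = 3; exact permutation p = 0.8, smallest possible 0.0571). The 5 permutation tests of this section had Benjamini-Hochberg adjusted p of 0.9 each. Since the mice form 2 clusters, 2 high and 5 low, no correlation between B cell UMIs and outside UMIs is given.

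A few cells held a large part of the outside UMIs. Of 27804 cells, 65 had 1% or more of their UMIs in immunoglobulin rows, and they carried 41.2% of the outside member UMIs, with 39.2% in the highest 10. There were 5 cells above 20%, 4 annotated as mo-DCs (monocyte-derived dendritic cells; 3 in WT replicate 2 and 1 in KO replicate 4) and 1 as a precursor-exhausted CD8+ T cell in KO replicate 4. All 5 carried Ighg2c or Ighg2b with a called heavy V gene and had 19734 to 30297 UMIs. The mo-DCs as a whole stood at 4000 CPM and at 399 without the cells of 1% or more. The 5 cells were deeper than the median mo-DC, which had 9017 UMIs, and the part of this depth in the result was not tested.

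In the remaining cells the level varied with the library as well as with the cell type. Tumour and stromal cells, which are not known to transcribe these genes, stood at 153 CPM over all mice, with 415 in KO replicate 4 and 478 in WT replicate 2 against 16.8 in WT replicate 3. Other annotations at under 1% per cell lay between 233 and 3127 CPM. Igkc was seen in 84.8% of B cells and in 1.56% of tumour and stromal cells after each cell was thinned to 1500 UMIs (91.3% and 14.6% without thinning, at median depths of 7302 and 20569 UMIs). The V genes outside B cells, in cells under 1%, ranked most like those in the B cells of their own library in 7 of 7 mice, with a Spearman rho over the 156 V members of 0.79 in WT replicate 2 and 0.72 in KO replicate 4 and of 0.22 to 0.43 in the other 5. The margin was small in some mice: in KO replicate 1 it was 0.218 for its own B cells and 0.202 for those of KO replicate 3, and in KO replicate 3 it was 0.435 for its own and 0.403 for those of WT replicate 1. The V members are not independent of each other, and these values are a description.

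**Figure D5:**
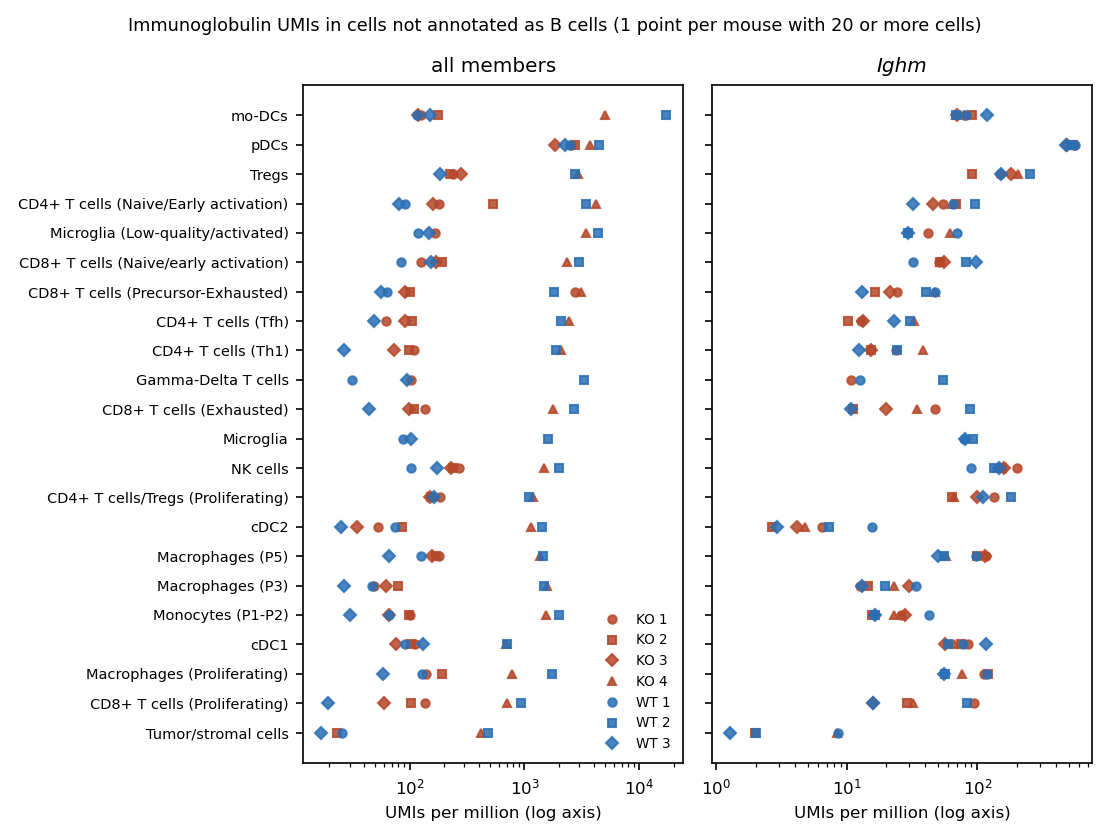
CPM in each annotation other than B cells (rows), for all members (left) and for Ighm alone (right), 1 point per mouse with 20 or more cells, on log axes, KO in red and WT in blue. On the left KO 4 and WT 2 lie to the right of the other mice in most rows, and on the right the pDC points of all mice lie together near 530 CPM.

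Ighm did not follow that pattern. It had 12674 UMIs outside B cells, which is 77.5% of all Ighm UMIs, against 10.5% for Igkc, 8.26% for Ighg2c and 7.37% for Ighg2b. In all cells outside B cells Ighm stood at 97.5, 60.8, 41.7 and 62.9 CPM in KO replicates 1 to 4 and at 81.0, 71.5 and 51.8 in WT replicates 1 to 3, a narrow range without the peak in KO replicate 4 and WT replicate 2. Igkc in the same cells ran from 5.46 to 218 CPM, with its 2 highest values, 211 and 218, in those mice.

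Plasmacytoid dendritic cells (pDCs), a cell type that makes interferon, had the highest Ighm level outside B cells, 530 CPM beside 387 in B cells. As CPM of the UMIs that were not immunoglobulin the levels were nearly equal, 531.4 in pDCs and 530.6 in B cells. Their Ighm stood at 546, 542, 484 and 516 CPM in KO replicates 1 to 4 and at 557, 523 and 478 in WT replicates 1 to 3. After thinning, 50.4% of pDCs had an Ighm UMI against 0.26% of tumour and stromal cells. Regulatory T cells at 186 CPM and NK cells at 157 were next, and the conventional dendritic cells named cDC2 stood at 6.19. For each Igkc UMI there were 0.0243 Ighm UMIs in B cells, 0.895 in pDCs, 3.61 in NK cells and 3.29 in cDC1. The Ighm and Igkc counts were therefore not in 1 ratio across cell types.

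Igkc was also highest in pDCs among the annotations outside B cells, at 592 CPM, with a UMI in 40% of the cells after thinning and with 273 to 846 CPM in the 7 mice. Lambda constant regions lay in pDCs as well. Of the 4100 Iglc3 UMIs outside B cells 3576 (87.2%) were in pDCs, and of 1750 Iglc2 UMIs 1219 (69.7%) were. There were 2.93 Iglc3 UMIs for each Iglc2 UMI in pDCs and 0.534 in B cells. Ighg2c stood at 0.0686 per Igkc UMI in pDCs and at 0.743 in B cells. The pDC level of all members was 1851 to 4413 CPM in the 7 mice, against 16.8 to 478 for tumour and stromal cells in mice with 20 or more such cells. Of the 3530 Igha UMIs outside B cells 2006 were in precursor-exhausted CD8+ T cells, of which 1248 and 581 came from 2 cells of KO replicate 1.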

How the data were processed

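Single-cell 5′ libraries of 7 mice (4 KO, 3 WT) were read from the matrix that the authors deposited, which holds expected counts, that is, unscaled UMIs by gene and cell with some values not whole. FastQC 0.11.5, STAR 2.7.10a and STARsolo are named, per the submitters' processing notes, with build mm10 and no settings. Cell names are the authors'. UMIs of B cells were summed per mouse, rounded and tested with edgeR 4.0.16 (TMM, filterByExpr, quasi-likelihood test, Benjamini-Hochberg over all genes), genotype as the term, in mice with 20 or more B cells; DESeq2 1.42.0 was an alternative. The SE of an edgeR log2 fold change is its absolute value divided by the square root of the F statistic, and not a separate estimate. The scripts were tested on simulated data. Shares per mouse were compared by exact two-sided permutation tests of means (scipy 1.17.1). Replicates are separate mice. Intervals are Clopper-Pearson and cover counting error only. Sex was read from Xist and Y-linked genes (KO replicates 1 and 2 and WT replicate 3 female). Genes and positions are from GENCODE M21.

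The members and gene lists were chosen with earlier results of these data known. Named genes were the constant regions, the 10 V members with the most UMIs, called members and list genes. The V genes of the frequent pairs, the near copies, and the genes used to describe the 2 ranges of B cells were picked after their values were seen. A correlation of outside UMIs with B cell UMIs had been planned and is not given, because the mice form clusters of under 6. Promoters and proteins of the members were not used here. Results on 2 genes of the lists are not reported here.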

Additional observations from a re-analysis of the deposited data

Results flagged for a closer look

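In the group of 4 KO mice, 19 measures were looked at for a mouse far from the other 3, and 6 gave one. By chance about 1 in 20 such groups does when the values are normally distributed. The values were taken on their raw scale and some spanned orders of magnitude, so that rate need not hold here. The measures are also not independent of each other. KO replicate 4 lay far above the others in cells annotated as B cells, with 273 against 8 to 41. It also lay far above them in the percent of its UMIs in B cells, with 7.75% against 0.522% to 1.55%, in the number of immunoglobulin-rich B cells, with 109 against 3 or 4, and in Ighg2b, with 9269 CPM (UMIs per 1000000 B cell UMIs) against 0 to 513. As a share of B cells, the rich cells of KO replicate 4 (39.9%) were close to those of KO replicate 1 (37.5%, from 8 B cells). KO replicate 1 lay far above the others in Igha, with 28081 CPM against 963 to 2722, from 8 B cells. KO replicate 2 lay far above the others in Iglc3, with 1467 CPM against 460 to 594. WT replicate 2 resembled KO replicate 4 in B cell number (357) and rich cells (171), but a group of 3 mice cannot be examined in this way.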

How the results depend on the processing

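With edgeR, 0 genes and 0 members were called in all 6 fits that left out 1 mouse, and also with all 7 mice, with sex as a term, with whole values only, with members out of the library size, without rich cells and with cells thinned to 1500 UMIs. DESeq2 called 2 genes, both members, and edgeR with no filter on low counts called 14, of which 9 were members; the cause was not tested. The labels do not pair mice by replicate number. Among the fitted mice only replicates 2 and 3 had a mouse of each genotype, and their deviations correlated at −0.448 and 0.0247. With so few mice these values cannot decide whether the numbers pair the mice. In the fit with the replicate number as a block, KO replicate 4 and WT replicate 1 had no partner and added nothing to the contrast. The contrast rested on KO replicates 2 and 3 (40 and 41 B cells) against WT replicates 2 and 3 (357 and 25). That fit called 27 of 4648 genes (0.581%), 24 of them among the 76 members tested (1 higher and 23 lower in KO). Among them were Ighg2c at −2.68, Igkc at −2.39 and Igkv1-117 at −6.09. Under the block Ighd turned to 0.57 and Ighg2b to −4.06, and Igkv3-7 was 0.48. With sex as a term Ighg2b was −0.12. With all 7 mice Igha was 1.91 and Igkc 0.53. Without rich cells Igha was 0.95 and Iglc3 −0.31. Leaving out 1 mouse, the log2 fold change ran from −2.49 to 0.15 for Ighd (positive without WT replicate 1), −3.01 to 2.41 for Ighg2b (negative without KO replicate 4), −0.52 to 0.21 for Iglc1 (positive without WT replicate 2), −0.66 to 0.17 for Iglc2 (positive without KO replicate 3, and 0.04 without WT replicate 2) and −0.37 to 0.67 for Iglc3 (negative without KO replicate 2); it ran from −1.53 to −0.82 for Ighm, −1.60 to −0.35 for Igha (the ends without KO replicate 2 and WT replicate 3), and −2.11 to −0.44 for Ighg2c and −1.90 to −0.15 for Igkc (the ends without KO replicates 4 and 2). With cells thinned to 1500 UMIs Ighm was −0.56 (edgeR, unadjusted p = 0.146). The 5 permutation tests could not pass 0.05 with this many mice, so only the differences are given. KO minus WT, leaving out 1 mouse, ran from −7.63 to 5.11 points for the immunoglobulin percent (positive without KO replicate 2, KO replicate 3 or WT replicate 2), −5.60 to 14.9 for lambda (negative without WT replicate 3, KO replicate 2 or WT replicate 2), −5.80 to 5.55 for Ighd (positive without KO replicate 4 or WT replicate 1), −3.22 to 36.9 for switched cells (negative without WT replicate 1) and −897 to 607 CPM outside B cells (positive without WT replicate 2). With all 7 mice the immunoglobulin percent differed by 5.53, lambda by −2.29 and Ighd by 1.63. As a mean over cells, lambda differed by −1.35. Over same-numbered pairs, with the replicate block, the measures within B cells rested on replicates 2 and 3, without KO replicate 4 and WT replicate 1. There Ighd differed by 8.64, switched cells by −17.8, the immunoglobulin percent by −14.1 and lambda by 22.4. Outside B cells replicates 1 to 3 were paired, and the outside UMIs differed by −851 CPM. Ighm plus Igkc alone outside B cells gave 14.6 CPM. The causes of these changes of sign were not tested. At a UMI limit of 10 or 50 the rule gave 186 or 154 members, and at a limit of 10% there were 374 rich cells. Depth limits these results through the 8 to 41 B cells of 3 KO mice and 25 of WT replicate 3, and the calls of class and V gene need 3 UMIs.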
